A study of Mus musculus with 19 samples.

Results

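The genes described here are 10 regulators of apoptosis, namely Mcl1, Bcl2, Bcl2l1, Bcl2l11, Bax, Bbc3, Pmaip1, Xiap, Birc2 and Birc5. They were taken by symbol from 2 count tables, and all 10 were found among the 54352 gene symbols that each table lists. The study followed TT2 mouse embryonic stem cells, a line grown over fibroblasts from mouse embryos that no longer divide (feeders), and blastoids, aggregates grown from stem cells in 3D microwells to resemble the blastocyst. The 4 libraries of 2D culture comprised 2 from cells given 20 nM pladienolide B (PlaB) for 6 h after 48 h of growth, and 2 from untreated control cells harvested at the same 54 h. Blastoids gave 3 libraries on each of days 1, 2, 3, 4 and 5, and the labels list the 20 nM, 6 h PlaB treatment for these libraries too, so by the labels no blastoid group grew from untreated cells. All 19 libraries thus come from the same line, and polyadenylated RNA was measured by the Smart-seq2 method, in which cDNA is amplified by PCR and molecules carry no identifiers. PlaB binds the SF3B complex of the spliceosome and blocks splicing.

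Apoptosis through mitochondria is set by proteins of the BCL2 family. Pro-survival members such as MCL1, BCL2 and BCL-XL hold the pore-forming effectors BAX and BAK in check, and BH3-only proteins such as BIM, PUMA and NOXA bind the pro-survival proteins and release the effectors, after which cytochrome c leaves the mitochondria and caspases are activated. Proteins of the inhibitor-of-apoptosis (IAP) family carry BIR domains. XIAP inhibits caspases directly, the product of Birc2 is a ubiquitin ligase of the TNF and NF-kB pathways, and survivin, encoded by Birc5, belongs to the chromosomal passenger complex and works mainly in mitosis. Pluripotent stem cells are known for their readiness to undergo apoptosis after damage, and MCL1 is a short-lived protein whose pre-mRNA can also be spliced to a short form with the opposite effect. Bcl2l1 likewise gives a long, pro-survival and a short, pro-apoptotic form. The counts used here are per gene and do not separate these forms.

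The promoters of 4 members are shown because these genes carry the contrasts described below. Birc2 and Xiap had the lowest PlaB-to-control ratios, the direction of Bax turned when base composition was corrected for, and Birc5 was among the most abundant. RefSeq promoters (assembly GRCm38.p6) were found for 9 of the 10 members. Each run covers 250 bases upstream of the listed transcription start, 5′ to 3′ on the gene's strand. Capitals mark the GC box GGGCGG or its reverse complement and a single decamer of the p53 response element, not a full element of 2 such decamers. The Bax window is chr7:45466899-45467148 on the minus strand, the Xiap window chrX:42068148-42068397 on the plus strand, the Birc2 window chr9:7837058-7837307 on the minus strand, and the Birc5 window chr11:117848987-117849236 on the plus strand. By GENCODE M21 (GRCm38), Mcl1 lies at chr3:95658788-95663176 and Birc2 at chr9:7818227-7837064, Xiap at chrX:42059679-42109656, Bax at chr7:45461697-45466898 and Birc5 at chr11:117849251-117855743. The Xiap start used lies inside the gene as the longer GENCODE model draws it.
Bax: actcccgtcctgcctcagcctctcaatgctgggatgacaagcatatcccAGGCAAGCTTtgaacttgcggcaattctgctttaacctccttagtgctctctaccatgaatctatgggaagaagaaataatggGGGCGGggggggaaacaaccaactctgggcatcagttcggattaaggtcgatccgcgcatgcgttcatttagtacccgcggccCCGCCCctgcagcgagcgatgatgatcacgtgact
Xiap: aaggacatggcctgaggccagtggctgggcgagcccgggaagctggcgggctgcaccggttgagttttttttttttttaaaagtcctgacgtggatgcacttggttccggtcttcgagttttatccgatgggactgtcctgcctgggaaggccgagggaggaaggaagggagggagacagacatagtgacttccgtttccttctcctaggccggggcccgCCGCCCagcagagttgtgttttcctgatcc
Birc2: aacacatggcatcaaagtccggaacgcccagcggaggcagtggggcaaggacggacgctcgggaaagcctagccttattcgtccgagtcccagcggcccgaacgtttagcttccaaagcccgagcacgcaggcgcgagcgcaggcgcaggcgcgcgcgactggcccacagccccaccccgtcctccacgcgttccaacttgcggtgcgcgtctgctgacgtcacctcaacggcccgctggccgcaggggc
Birc5: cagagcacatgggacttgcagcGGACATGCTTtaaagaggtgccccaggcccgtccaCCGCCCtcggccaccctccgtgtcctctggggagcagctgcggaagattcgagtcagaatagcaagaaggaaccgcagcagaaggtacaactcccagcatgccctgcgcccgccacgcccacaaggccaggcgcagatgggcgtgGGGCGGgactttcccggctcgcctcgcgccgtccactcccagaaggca
The GC content of these windows was 54% for Bax, 57.6% for Xiap, 68.4% for Birc2 and 65.6% for Birc5. The median over all promoters was 52%. On both strands, the GC box was found in 7 of 9 members (Mcl1, Bcl2, Bcl2l11, Bax, Bbc3, Xiap and Birc5) and in 32.9% of 27025 promoters of the same length. The p53 decamer was found in Bax and Birc5, 2 of 9 members, and in 7.18% of all promoters. In Bax it overlaps the cell-cycle element TTTGAA, which Mcl1 and Bcl2 also hold and which 16.3% of promoters hold. CCAAT was found in Bcl2l11 (34.5% of all promoters), and TATAAA (13%) in no member. These are matches of letters in a window and show no binding.

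Levels are given as CPM, counts brought to a common library total, scaled by the trimmed mean of M-values (TMM) within 2D culture or within blastoids. Library totals ran from 2515381 to 2765115 counts after PlaB, from 3909958 to 4118725 in control cells and from 3684787 to 7607021 in blastoids. The labels do not say whether replicates are separate cultures, and the p-values cover only the spread between these libraries, which may be technical. Blastoid replicate 3 of day 3 stood apart, with 13.5% of its counts from mitochondrial genes, against 5.50% and 4.71% in the other day 3 libraries. The stem cell markers Sox2, Nanog, Zfp42 and Dppa5a were detected in every group, whereas Pou5f1, which the antisense gene Gm19553 overlaps, averaged 15.6 CPM after PlaB and 0.499 CPM in control cells. Whether that overlap affects the Pou5f1 counts was not tested. Cdx2, which defines trophectoderm, averaged 0 to 0.979 CPM in the 7 groups, although 7 of 8 tested trophectoderm markers were higher on day 5 than on day 1. Because the samples are bulk, fewer cells of a type and less RNA per cell cannot be told apart.

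Per kilobase of exon, and with all libraries scaled together, either Birc5 or Mcl1 had the highest mean in each of the 7 groups. In PlaB-treated 2D cells the mean was 104 ± 16.1 CPM per kb for Birc5, 45.0 ± 8.69 for Pmaip1, 42.3 ± 0.792 for Mcl1, 18.1 ± 5.03 for Bax, 3.56 ± 0.256 for Xiap, 2.69 ± 0.212 for Bcl2l1, 2.58 ± 0.354 for Birc2 and 1.32 ± 0.265 for Bcl2l11 (SD, n = 2). Pmaip1 and Mcl1 did not differ beyond their spread, nor did Bcl2l1 and Birc2. In control cells it was 89.5 ± 4.38 for Birc5 and 80.8 ± 9.15 for Mcl1, then 47.4 ± 3.68 for Pmaip1, 15.4 ± 0.704 for Birc2, 14.4 ± 2.20 for Xiap, 6.78 ± 2.27 for Bax, 2.14 ± 0.202 for Bcl2l11 and 0.915 ± 0.0370 for Bcl2l1. Birc5 and Mcl1 did not differ beyond their spread there, nor did Birc2 and Xiap. In blastoids the order changed with time. On day 1, Birc5 (141 ± 24.8) was followed by Bax (40.5 ± 15.2) and Mcl1 (35.7 ± 1.78), which overlapped, and then by Pmaip1 (17.2 ± 1.75), Birc2 (10.5 ± 1.53) and Xiap (5.61 ± 0.405; SD, n = 3). On day 5, Mcl1 (82.8 ± 7.71) and Birc5 (76.5 ± 7.57) did not differ beyond their spread and were followed by Birc2 (13.8 ± 2.40), Pmaip1 (13.2 ± 3.43), Xiap (7.82 ± 2.58) and Bax (7.43 ± 2.12). Bcl2 and Bbc3 were the lowest in each of the 7 groups, at 0.289 and 0.372 CPM per kb after PlaB and 0.246 and 0.0600 in control cells.

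The 2D comparison asked what a short block of splicing did to the stem cell culture. Of the 10 genes, 9 had enough counts to be tested with edgeR's quasi-likelihood test (Benjamini-Hochberg adjusted over 11183 genes). Mcl1, Xiap and Birc2 fell, Bax and Bcl2l1 rose, and 4 did not pass. Of all genes tested, 51.7% passed, 25.9% higher and 25.8% lower, so 5 of 9 is close to the background.

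Birc2, the IAP-family ubiquitin ligase, stood at 12.3 and 9.99 CPM in PlaB-treated cells, against 64.9 and 68.2 CPM in control cells. It was 5.98-fold lower after PlaB, or -2.58 on the log2 scale with a standard error of 0.24 (adjusted p = 5.26e-11). Xiap, the caspase inhibitor, stood at 33.6 and 30.0 CPM after PlaB and at 144 and 114 CPM in control cells, a change of -2.02 ± 0.19 (adjusted p = 2.53e-11). The libraries of the 2 groups were far apart for both IAP genes. Mcl1, which encodes the short-lived pro-survival protein, had 139 and 134 CPM after PlaB and 284 and 238 CPM in control cells (raw counts 339 and 361, against 1171 and 942). It fell by 0.94 ± 0.14 on the log2 scale (adjusted p = 9.49e-07), again without overlap between groups.

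**Figure D1:**
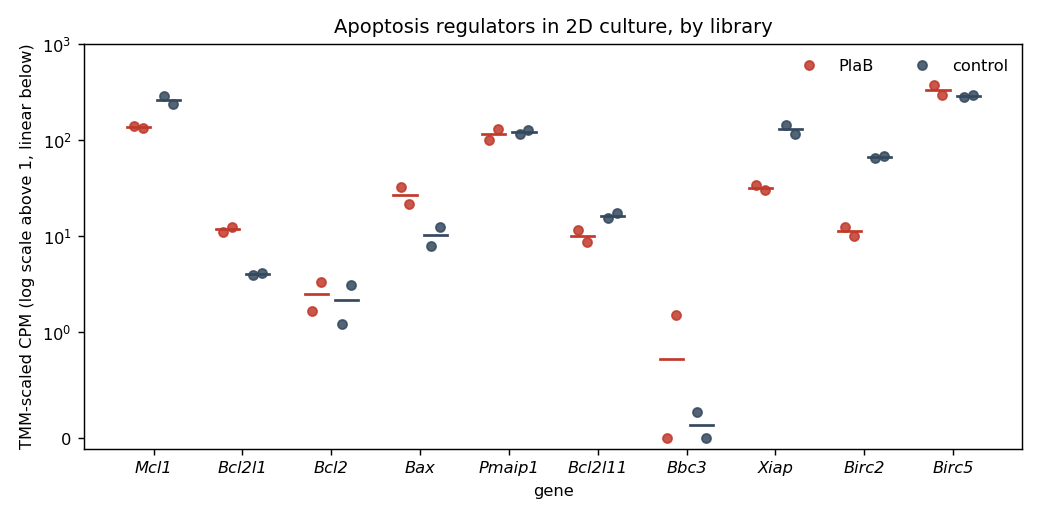
Levels of the 10 genes in 2D culture in TMM-scaled CPM (vertical axis, logarithmic above 1 and linear below), with a point for each library, a bar for the mean and PlaB left of control. The PlaB points of Mcl1, Xiap and Birc2, and of Bcl2l11, which did not pass, lie below the control points. Those of Bax and Bcl2l1 lie above them, and those of Pmaip1, Birc5, Bcl2 and Bbc3 overlap the control points.

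Base composition moved with the treatment. GC-rich genes stood above GC-poor genes, relative to the mean of all libraries, by 0.208 and 0.106 on the log2 scale in the PlaB libraries, against -0.978 and -0.799 in the control libraries. With offsets that remove a smooth dependence on transcript GC content from each library, the falls stayed at -2.20 for Birc2 (adjusted p = 3.93e-09), -1.46 for Xiap (adjusted p = 2.84e-08) and -0.94 for Mcl1 (adjusted p = 1.31e-06). Xiap has the lowest GC content of the members, 36.8% in its longest transcript, and lost part of its fold.

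Bax, the pore-forming effector, had 32.4 and 21.5 CPM after PlaB and 7.75 and 12.4 CPM in control cells. It rose by 1.41 ± 0.31 (adjusted p = 0.000296), but with GC offsets the sign turned to -0.21 (adjusted p = 0.602), so its direction depends on that setting. Its longest transcript has 63.5% GC, and 192 bp of its exons overlap Gm45808 on the same strand, so its counts are uncertain in part. Bcl2l1, which encodes BCL-XL, had 11.1 and 12.2 CPM after PlaB and 3.88 and 4.04 CPM in control cells, with raw counts of 27 and 33 against 16 and 16. It rose by 1.55 ± 0.45 (adjusted p = 0.00411). With GC offsets the value was 0.71 (adjusted p = 0.193), and without control replicate 1 the adjusted p was 0.0509.

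Of the BH3-only genes among the 10, neither of the 2 tested passed. Bcl2l11, encoding BIM, had 11.5 and 8.51 CPM after PlaB and 15.3 and 17.2 CPM in control cells, a log2 difference of -0.70 ± 0.34 (adjusted p = 0.0819; unadjusted p = 0.0465). Pmaip1, encoding NOXA, had 101 and 131 CPM after PlaB and 116 and 128 CPM in control cells, with overlapping groups and a difference of -0.07 ± 0.16 (adjusted p = 0.72). With DESeq2 neither passed, at adjusted p-values of 0.254 and 0.811. Bbc3, encoding PUMA, had 0 and 4 counts after PlaB and 1 and 0 counts in control cells and was not tested. Its 0 in PlaB replicate 1 allows up to 1.19 CPM, and that in control replicate 2 up to 0.767 CPM, by 3 counts and for counting error only.

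Birc5, survivin, had 371 and 293 CPM after PlaB and 280 and 295 CPM in control cells, a difference of 0.21 ± 0.13 (adjusted p = 0.198). The groups overlapped. It passed with GC offsets (0.33, adjusted p = 0.0438) and without PlaB replicate 2 (0.38, adjusted p = 0.0499). Bcl2 had only 4 and 9 counts after PlaB and 5 and 12 in control cells (adjusted p = 0.803), and 558 bp of its exons overlap the antisense gene D630008O14Rik, whose reads cannot be told apart without strand.

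Feeder RNA also moved with the treatment. The summed share of 15 fibroblast markers was 4138 and 4933 CPM of library totals in the PlaB libraries and 2551 and 2997 CPM in the control libraries. Of the 14 tested, 12 rose, while S100a4 was at or near 0 in every group. With GC offsets 9 rose and 1 fell, Fn1 (-0.35, adjusted p = 0.0264). Mitochondrial genes took 9.14% and 9.38% of the counts after PlaB, against 5.74% and 6.18% in control cells. Of 8 pluripotency markers, 4 fell and 1 rose, or 5 fell and 2 rose with GC offsets. The part of these shifts in the values of the apoptosis genes was not tested.

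Other genes of the death pathways gave a mixed picture after PlaB. Of 10 genes of the p53 axis, 8 rose and 2 did not pass, with a median log2 fold change of 1.28 against 0.00 over all genes, and 9 rose with GC offsets. Mdm2, the ubiquitin ligase that restrains p53, was at 1828 CPM after PlaB and 215 CPM in control cells (3.09 ± 0.13, adjusted p = 9.73e-20). Phlda3, a p53-induced repressor of AKT signalling, rose by 3.85 ± 0.49 (adjusted p = 3.27e-08; 2.32 and adjusted p = 0.000237 with GC offsets), and Cdkn1a, the cyclin-dependent kinase inhibitor, by 1.79 ± 0.20 (adjusted p = 7.66e-07; 1.14 with GC offsets). Bax, Bbc3 and Pmaip1 are themselves known p53 targets, and as given above Bax rose with a direction that turned under GC offsets, Pmaip1 did not pass and Bbc3 was not tested. Of the 3 other BH3-only genes and effectors tested, Bad rose (23.6 CPM after PlaB and 4.21 CPM in control cells, 2.47 ± 0.37, adjusted p = 9.14e-07) and Bid, whose product links death receptors to mitochondria, fell (2.50 CPM after PlaB and 14.7 CPM in control cells, -2.52 ± 0.47, adjusted p = 2.96e-05). With GC offsets the values were 1.49 for Bad (adjusted p = 0.0012) and -2.78 for Bid (adjusted p = 7.46e-06). Bok, the remaining gene, did not pass (-0.34 ± 0.65, adjusted p = 0.683), but it fell with GC offsets (-1.72, adjusted p = 0.0264).

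Among the tested genes of the apoptosome and caspases, Parp1, a caspase substrate in DNA repair, rose (0.59 ± 0.16, adjusted p = 0.00226; 0.15 and not passed with GC offsets, adjusted p = 0.446), and Cycs, encoding cytochrome c, fell by 0.77 ± 0.12 (adjusted p = 1.92e-06; -0.29 and adjusted p = 0.0489 with GC offsets). In the death-receptor arm, Cflar, which encodes the caspase-8 inhibitor FLIP, rose by 1.33 ± 0.21 (adjusted p = 1.54e-06), Ripk1 fell by 1.10 ± 0.34 (adjusted p = 0.00627), and the other 3 of 5 did not pass. Of 3 other IAP-related genes tested, Birc3 had a change of -1.21 ± 0.47 (adjusted p = 0.0303; 0.0699 with GC offsets). Birc3 is the close relative of Birc2. Of the chromosomal passenger partners of survivin, Incenp rose by 0.80 ± 0.25 (adjusted p = 0.00867; 0.10 and adjusted p = 0.772 with GC offsets), and Aurkb and Cdca8 did not pass. With GC offsets Aurkb stood at -0.94 and passed (adjusted p = 0.00365). Among 15 genes of G2 and M phase, 9 fell and 2 rose, whereas Birc5, which peaks in the same phase, did not pass. Of 4 genes for turnover of the MCL1 protein, none passed. Fbxw7, of a ubiquitin ligase, had the smallest adjusted p, 0.0869 at 0.41 ± 0.20, and passed with GC offsets (0.59, adjusted p = 0.0137). Usp9x, of a deubiquitinase that stabilizes MCL1, stood at -0.16 ± 0.13 (adjusted p = 0.29). With GC offsets it was higher and passed too (0.33, adjusted p = 0.0282).

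In blastoids, all 10 genes differed between at least some of the 5 days (F-test of edgeR over 15121 genes), against a background of 68.0%. With GC offsets 8 did, where 9824 of the 15121 genes passed, and Bbc3 (adjusted p = 0.398) and Bcl2 (adjusted p = 0.0525) no longer did. The main F-test gave adjusted p-values of 0.0442 for Bcl2 and 0.0452 for Birc5, near the threshold. Leaving out 1 library left 7 to 10 members past it, and 9586 to 10767 of all genes. From the first to the last day, Mcl1 and Bcl2 rose, Bax, Bbc3 and Birc5 fell, and 5 did not pass. Of all genes 51.0% passed, 25.5% in each direction, so 5 of 10 is again close to the background. Bbc3 entered the blastoid fit through its day 1 libraries alone, where it was highest, so its calls in both tests are not independent of the low-count filter.

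Mcl1 had 125, 116 and 124 CPM at day 1 and 143, 120 and 99.2 CPM at day 2. It then reached 170, 217 and 221 CPM at day 3, 208, 176 and 153 CPM at day 4, and 318, 305 and 262 CPM at day 5. Day 5 was above day 1 by 1.28 ± 0.20 on the log2 scale (2.43-fold, adjusted p = 3.44e-05), with every day 5 library above every library of the earlier days. With GC offsets the difference was also 1.28 (adjusted p = 2.39e-05). The rise came in steps, from day 2 to day 3 (0.74 ± 0.20, adjusted p = 0.0108) and from day 4 to day 5 (0.72 ± 0.20, adjusted p = 0.0107). Without day 2 replicate 3 the first step had an adjusted p of 0.0849, and without day 4 replicate 3 the last step one of 0.0778. The last step was also lost with total-count scaling (0.50, adjusted p = 0.0693). When genes of low count were kept in the fit, neither step passed (adjusted p = 0.0765 for the first and 0.187 for the last). Without day 3 replicate 3, the library that stood apart, the first step was 0.68 (adjusted p = 0.0196).

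Bcl2 stayed scarce, with 4, 2 and 1 counts at day 1, 3, 7 and 13 at day 2, 1, 3 and 3 at day 3, 9, 1 and 10 at day 4, and 17, 8 and 5 at day 5. Its day 5 to day 1 change of 2.58 ± 0.84 (adjusted p = 0.0145) rests on these few reads and no longer passed without day 1 replicate 3 (adjusted p = 0.0716) or without day 5 replicate 1 (adjusted p = 0.0971). Bcl2l1 had 17.2, 11.8 and 9.41 CPM at day 1, 6.89, 5.06 and 5.06 CPM at day 2, 8.82, 6.95 and 11.6 CPM at day 3, 20.1, 9.83 and 13.8 CPM at day 4, and 12.0, 12.3 and 13.8 CPM at day 5. It dipped on day 2 (-1.18 ± 0.31 against day 1, adjusted p = 0.0253; -0.70 and adjusted p = 0.228 with GC offsets), and days 5 and 1 overlapped (-0.02 ± 0.30, adjusted p = 0.965).

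**Figure D2:**
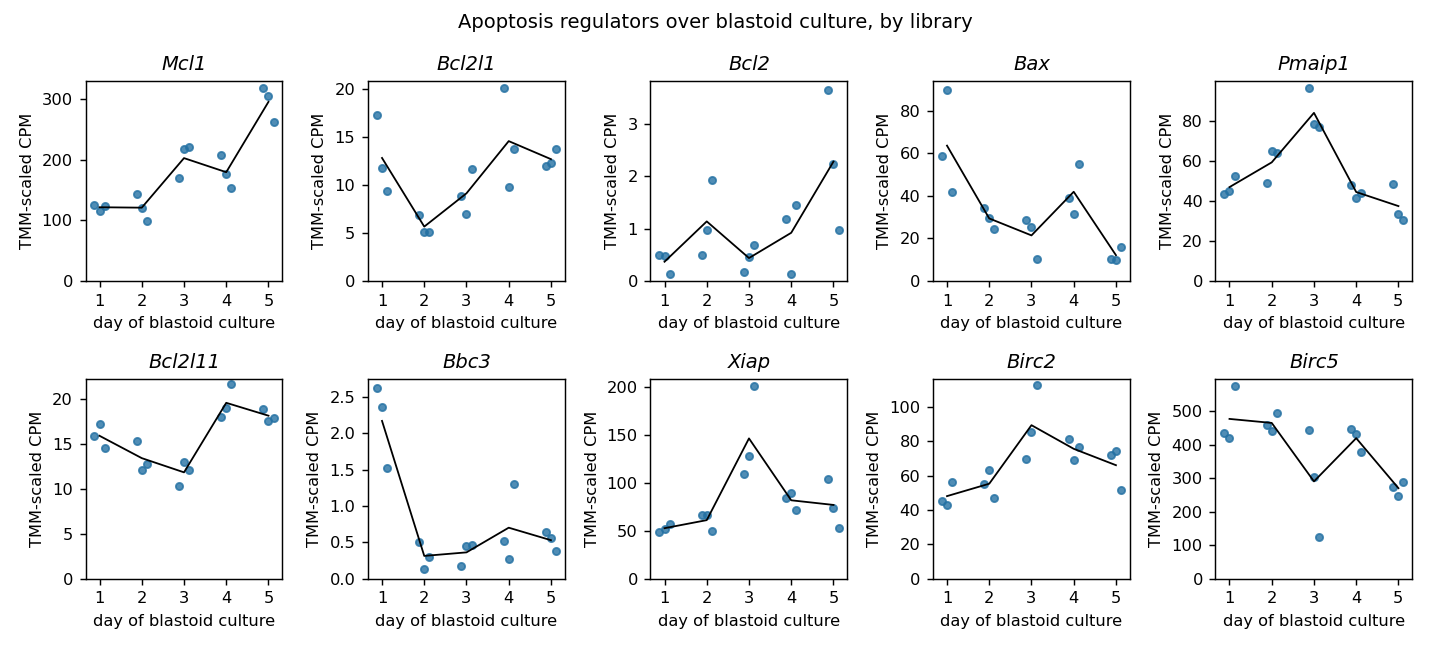
Levels of the 10 genes in TMM-scaled CPM (vertical axes, from 0) by day of blastoid culture, with a point for each library and a line through the day means. Among the blastoid days Mcl1 is highest on day 5, Bax and Bbc3 are highest on day 1, and Xiap, Birc2 and Pmaip1 are highest on day 3, where replicate 3 holds 201 CPM of Xiap and 125 CPM of Birc5.

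Bax had 58.8, 89.8 and 41.9 CPM at day 1, 34.1, 29.8 and 24.2 CPM at day 2, 28.7, 25.4 and 10.2 CPM at day 3, 39.0, 31.7 and 55.0 CPM at day 4, and 10.5, 10.04 and 15.9 CPM at day 5. It was 5.16-fold lower on day 5 than on day 1 (-2.37 ± 0.35, adjusted p = 1.78e-05), and with GC offsets the fall was smaller at -0.95 (adjusted p = 0.00518). Day 5 also lay below day 4 (-1.77 ± 0.35, adjusted p = 0.000914; -1.0004 and adjusted p = 0.00744 with GC offsets). Earlier steps depended on the setting. Day 2 lay below day 1 by -1.11 ± 0.33 (adjusted p = 0.0448) and day 4 above day 3 by 0.95 ± 0.33 (adjusted p = 0.0376), but with GC offsets the signs turned to 0.15 and -0.26. The day 4 call was also lost without day 3 replicate 3 (0.63, adjusted p = 0.12), day 4 replicate 1 (0.0598) or day 4 replicate 3 (0.184). The contrast of GC-rich with GC-poor genes was 0.469 to 1.07 at day 1, 0.135 to 0.223 at day 2, -1.09 to -0.386 at day 3, 0.354 to 0.560 at day 4 and -0.594 to 0.195 at day 5.

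Bbc3 had 21, 10 and 11 counts at day 1, when its level was 1.52 to 2.62 CPM. It had 3, 1 and 2 counts at day 2, 1, 3 and 2 at day 3, 4, 2 and 9 at day 4, and 3, 2 and 2 at day 5. Every later library lay below the day 1 range in CPM. The day 5 to day 1 change was -2.0004 ± 0.71 (adjusted p = 0.0238), and it was -0.48 (adjusted p = 0.599) with GC offsets. It missed the threshold in 5 of 6 fits that left out 1 library, with adjusted p-values up to 0.0864. When genes of low count were kept in the fit it was -2.20 (adjusted p = 0.0596). In the main fit only the day 1 libraries reached the filter's level for Bbc3. Its calls against day 1 are therefore not independent of that filter. Pmaip1 had 43.3, 44.8 and 52.5 CPM at day 1, 48.7, 64.9 and 64.0 CPM at day 2, 96.5, 78.5 and 76.8 CPM at day 3, 47.7, 41.7 and 43.9 CPM at day 4, and 48.3, 33.5 and 30.5 CPM at day 5. It was highest on day 3 and fell on day 4 by 0.92 ± 0.21 (adjusted p = 0.00333), with an adjusted p of 0.0741 under GC offsets and 0.00186 without day 3 replicate 3. Day 5 against day 1 gave -0.33 ± 0.21 (adjusted p = 0.21), and it passed with GC offsets (-0.73, adjusted p = 0.00547) and when only total counts set the scale (-0.66, adjusted p = 0.00954). That scaling shifted the median of all genes to -0.35 from -0.02 with TMM, so that relative to the median Pmaip1 stood at about the same place. Bcl2l11 had 15.9, 17.2 and 14.5 CPM at day 1, 15.3, 12.1 and 12.8 CPM at day 2, 10.3, 13.0 and 12.1 CPM at day 3, 18.0, 18.99 and 21.6 CPM at day 4, and 18.9, 17.6 and 17.9 CPM at day 5. The step to day 4, 0.72 ± 0.21 (adjusted p = 0.0168), was its only call between neighbouring days, and it was 0.76 with GC offsets (adjusted p = 0.0131). Without day 3 replicate 1 or day 4 replicate 3 the adjusted p was 0.0600 or 0.0814. Day 5 against day 1 gave 0.19 ± 0.21 (adjusted p = 0.47).

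**Figure D3:**
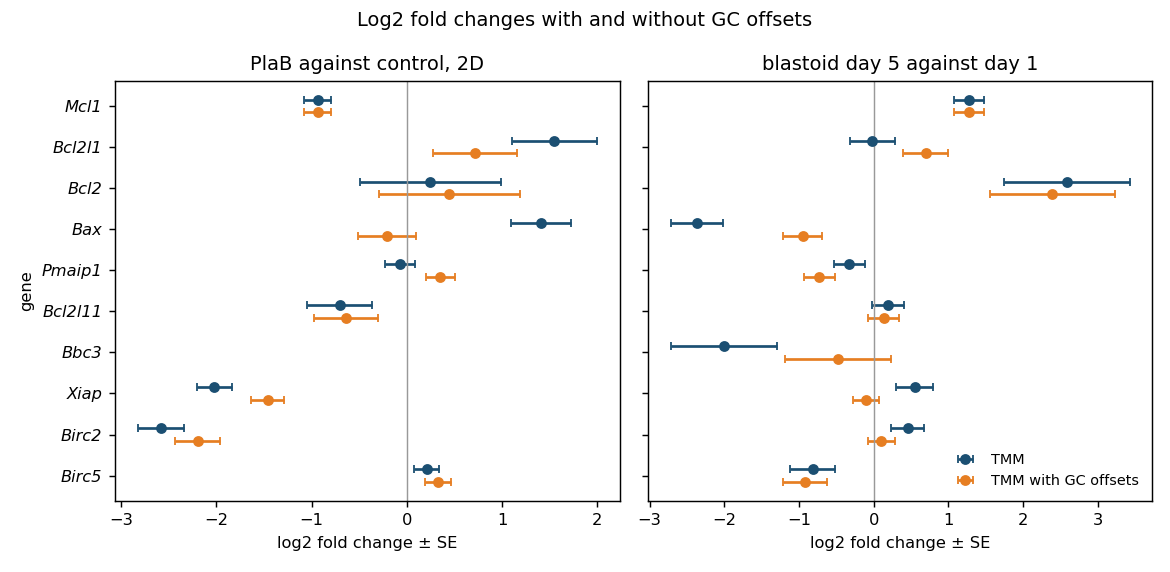
Log2 fold changes of each gene with standard errors (horizontal axis), for PlaB over control in 2D and for blastoid day 5 over day 1, with TMM scaling and with GC offsets added. Mcl1 stays in place in both comparisons, whereas Bax moves to -0.21 from 1.41 in the first and to -0.95 from -2.37 in the other; Bbc3 was not tested in 2D.

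Among the IAP genes, Xiap had 49.1, 52.4 and 57.2 CPM at day 1 and 66.9, 67.0 and 50.0 CPM at day 2. It was at 110, 129 and 201 CPM at day 3, 84.5, 89.3 and 72.3 CPM at day 4, and 104, 74.2 and 53.6 CPM at day 5. Day 3 was above day 2 by 1.26 ± 0.25 (adjusted p = 0.00197; 0.60 and adjusted p = 0.0174 with GC offsets), and the value of 201 CPM came from day 3 replicate 3, without which the step was 0.96 (adjusted p = 0.0055). The lower level on day 4 (-0.84 ± 0.25, adjusted p = 0.0167) became -0.54 without that library (adjusted p = 0.0829) and 0.01 with GC offsets (adjusted p = 0.964), and without day 4 replicate 3 its adjusted p was 0.079. Birc2 had 45.2, 42.9 and 56.1 CPM at day 1, 55.3, 63.4 and 47.2 CPM at day 2, 69.8, 85.3 and 113 CPM at day 3, 81.1, 68.8 and 76.8 CPM at day 4, and 71.9, 74.5 and 51.8 CPM at day 5. Its highest value was again in day 3 replicate 3. Day 3 was above day 2 by 0.69 ± 0.22 (adjusted p = 0.0253), which no longer passed without that library (0.49, adjusted p = 0.109) or with GC offsets (0.43, adjusted p = 0.0863), nor without day 2 replicate 1 (adjusted p = 0.0623), day 2 replicate 3 (0.134) or day 3 replicate 2 (0.052). From day 1 to day 5, Xiap (0.55 ± 0.25, adjusted p = 0.0752) and Birc2 (0.45 ± 0.22, adjusted p = 0.0888) did not pass, and without day 5 replicate 3 both did, at 0.75 (adjusted p = 0.0191) and 0.60 (adjusted p = 0.0363).

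Birc5 had 436, 421 and 575 CPM at day 1, 459, 442 and 496 CPM at day 2, 444, 304 and 125 CPM at day 3, 448, 432 and 379 CPM at day 4, and 275, 248 and 290 CPM at day 5. The lowest value, 125 CPM, was in day 3 replicate 3, the same library that held the highest Xiap and Birc2 levels. Day 5 lay below day 1 without overlap (-0.82 ± 0.30, adjusted p = 0.0269; -0.93 and adjusted p = 0.0125 with GC offsets). The call was lost without day 1 replicate 3 (adjusted p = 0.0786), day 5 replicate 1 (0.0673) or day 5 replicate 2 (0.0883).

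By step, the counts of genes passing between neighbouring days were as follows. Against day 1, day 2 had 3 members lower (Bcl2l1, Bax and Bbc3, the last at -2.74 ± 0.72 with adjusted p = 0.0237), where 6.96% of all genes passed, 1.69% higher and 5.27% lower. Bbc3 met the low-count filter through day 1 alone, so its call here is not independent of that filter. With GC offsets no member passed by edgeR (1 at an unadjusted p under 0.05), and 606 of 15121 genes did. DESeq2 without such offsets called 3 members and 1570 of 15121 genes. By edgeR, leaving out day 1 replicate 1, day 1 replicate 2, day 2 replicate 2 or day 2 replicate 3 also left 0 members past the threshold. Those fits called 426 of 15757, 440 of 15844, 582 of 15867 and 459 of 15863 genes, so 0 of 10 is close to the background. Leaving out day 2 replicate 1 left 1 member (538 of 15910 genes), and leaving out day 1 replicate 3 left 3 (1490 of 15900 genes). Against day 2, day 3 had Mcl1, Xiap and Birc2 higher (background 25.6%, 12.0% higher and 13.5% lower). Against day 3, day 4 had 2 higher and 2 lower (background 27.9%, 15.6% higher and 12.3% lower), of which Bcl2l11 alone passed with GC offsets. Against day 4, day 5 had Mcl1 higher and Bax lower (background 28.6%, 14.1% higher and 14.5% lower).

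The wider pathway also moved between days 5 and 1. Of 6 other BH3-only genes and effectors tested, 2 rose and 4 fell. Bid had 10.9 CPM on day 5 and 61.5 CPM on day 1 (-2.48 ± 0.23, adjusted p = 7.47e-08), Bad had 5.53 CPM on day 5 and 38.5 CPM on day 1 (-2.78 ± 0.29, adjusted p = 3.29e-07), and Bmf, a BH3-only gene, rose by 2.49 ± 0.56 (adjusted p = 0.000953) to 3.67 CPM on day 5, against 0.587 CPM on day 1. Bok and Bik also fell and Hrk rose, and Bik did not pass with GC offsets (adjusted p = 0.335). The further pro-survival gene with enough counts, Bcl2l2, encoding BCL-W, rose by 1.85 ± 0.50 (adjusted p = 0.00409). Of 11 genes of the apoptosome and caspases, 5 rose and 1 fell, with a median of 0.37 against -0.02 over all genes. Apaf1, the apoptosome scaffold, had 61.1 CPM on day 5 and 18.3 CPM on day 1 (1.73 ± 0.22, adjusted p = 3.16e-06), Cycs rose by 1.05 ± 0.24 (adjusted p = 0.00108; 0.0545 with GC offsets), and Casp8, the initiator caspase of death receptors, fell by 1.56 ± 0.36 (adjusted p = 0.00121).

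In the death-receptor arm 2 of 7 genes fell, among them Fas (2.31 CPM on day 5 and 8.86 CPM on day 1, -1.93 ± 0.52, adjusted p = 0.00451), and 1 rose, Tnfrsf10b (0.89 ± 0.25, adjusted p = 0.00525), which encodes a TRAIL receptor. Of 5 other IAP genes and antagonists, the giant IAP Birc6 rose (329 CPM on day 5 and 157 CPM on day 1, 1.06 ± 0.20, adjusted p = 0.000202), and Htra2, a mitochondrial protease that antagonizes IAPs (-3.30 ± 0.63, adjusted p = 0.000224), and Xaf1, an XIAP-associated factor (-1.11 ± 0.37, adjusted p = 0.0175), fell. Of 3 chromosomal passenger partners, Aurkb, the kinase of the complex, fell (31.3 CPM on day 5 and 64.7 CPM on day 1, -1.04 ± 0.25, adjusted p = 0.00171). With GC offsets Aurkb still fell (-0.67, adjusted p = 0.0114), and Incenp rose (0.86, adjusted p = 0.0061). G2 and M phase genes were divided, 8 of 15 higher and 4 lower, or 5 higher and 4 lower with GC offsets. Of 4 genes for MCL1 turnover, 3 rose, namely Fbxw7 (1.12 ± 0.21, adjusted p = 0.00023) and Huwe1 (0.68 ± 0.19, adjusted p = 0.00514), both of ubiquitin ligases, and Usp9x (0.94 ± 0.23, adjusted p = 0.00226; 0.107 with GC offsets), a deubiquitinase that stabilizes MCL1. In the p53 axis, 5 of 10 rose and 3 fell, or 4 rose and 2 fell with GC offsets. Trp53 itself had 59.8 CPM on day 5 and 333 CPM on day 1 (-2.48 ± 0.38, adjusted p = 2.43e-05), Phlda3 fell by 4.64 ± 0.43 (adjusted p = 8e-08), and Mdm2 rose by 1.11 ± 0.20 (adjusted p = 0.000148). Feeder markers fell too (12 of 14, list median -2.73 on the log2 scale), with summed levels of 231 to 274 CPM on day 5 and 668 to 1135 CPM on day 1. Of these sums, Fn1, which did not pass (0.40, adjusted p = 0.208), averaged 206 CPM on day 5 and 197 CPM on day 1. Of 8 pluripotency markers 4 fell and 1 rose, and of 5 tested primitive endoderm markers 4 fell. With GC offsets 9 feeder markers fell and 1 rose, and 4 pluripotency markers fell and 2 rose. The part of these shifts in the members' values was not tested.

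Ratios of raw counts within a library need no scaling between libraries, and they are given as a description. They do not remove the shift in base composition, and the longest transcripts have 48.7% GC for Mcl1, 42.1% for Pmaip1, 63.5% for Bax and 55.9% for Bcl2l1. MCL1 and NOXA proteins bind each other, and the ratio of Mcl1 to Pmaip1 counts was 2.36 to 2.88 at day 1, 1.55 to 2.93 at day 2, 1.76 to 2.87 at day 3, 3.49 to 4.36 at day 4 and 6.59 to 9.12 at day 5. All 3 day 5 libraries thus lay above every library of days 1 to 4. In 2D it was 1.38 and 1.02 after PlaB and 2.44 and 1.86 in control cells. The ratio of Bax to Bcl2l1 counts was 3.41 to 7.62 at day 1, 4.79 to 5.89 at day 2, 0.880 to 3.65 at day 3, 1.94 to 3.99 at day 4 and 0.818 to 1.15 at day 5. It was 2.93 and 1.76 after PlaB and 2.00 and 3.06 in control cells, where the groups overlap.

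**Figure D4:**
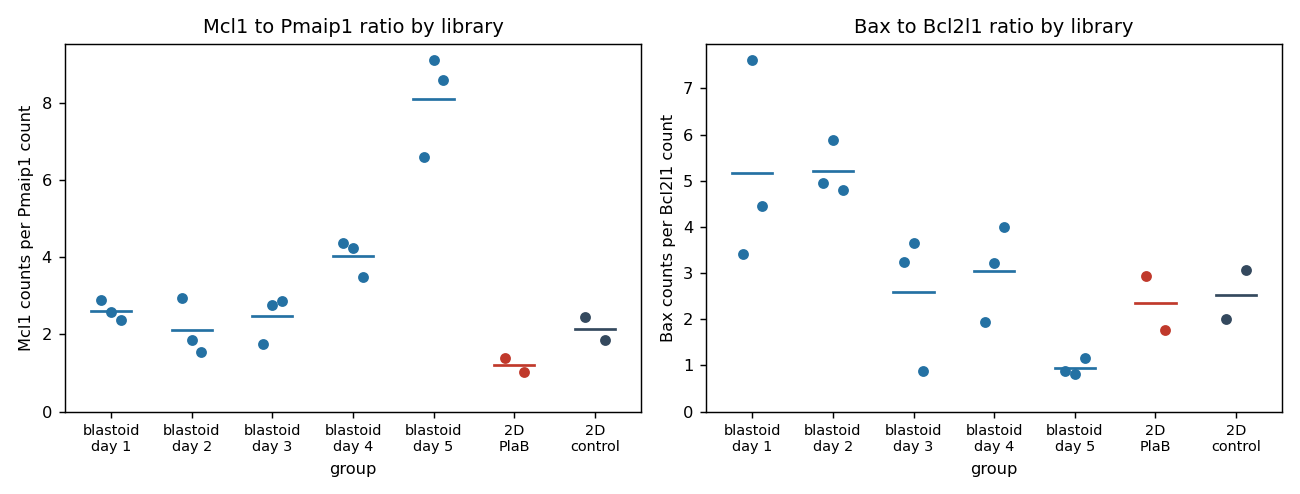
Mcl1 counts per Pmaip1 count (left) and Bax counts per Bcl2l1 count (right), on axes from 0, with a point for each library and a bar for the group mean, on blastoid days 1 to 5 and in PlaB-treated and control 2D cells. The first ratio is highest on day 5, at 6.59 to 9.12, and the other lies at 0.818 to 1.15 there, a range that day 3 replicate 3 shares at 0.880.

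Set against 2D cells in a fit of all 19 libraries, where culture format, time and count table change together and cannot be told apart, day 1 blastoids differed from PlaB-treated cells in 4 of 10 members (background 38.9%, 21.9% higher and 17.0% lower). Birc2 was higher in day 1 blastoids (2.03 ± 0.28, adjusted p = 3.72e-06), at 10.5 ± 1.53 CPM per kb (SD, n = 3) against 2.58 ± 0.354 in PlaB-treated cells (n = 2). Bax was higher too (1.16 ± 0.38, adjusted p = 0.0194), at -0.03 with GC offsets (adjusted p = 0.946). Pmaip1 was lower (-1.39 ± 0.23, adjusted p = 3.88e-05), as was Bcl2 on few counts (-2.79 ± 0.94, adjusted p = 0.0209). Xiap gave 0.66 ± 0.28 (adjusted p = 0.0661) and passed with GC offsets (1.09, adjusted p = 0.000249). Without PlaB replicate 2 neither Bax (adjusted p = 0.189) nor Bcl2 (adjusted p = 0.237) passed, and Bax was also lost without day 1 replicate 2 (0.104) and Bcl2 without day 1 replicate 3 (0.068). Summed feeder markers stood at 668 to 1135 CPM on day 1 and at 4138 and 4933 CPM in PlaB-treated cells. Total-count scaling moved the median of all genes to 0.43 from 0.14 with TMM, and it called 7 members, 5 of them higher, and 6764 of all 16304 genes, 4810 higher and 1954 lower, against 3569 higher and 2768 lower with TMM.

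Day 5 blastoids differed from control 2D cells in 3 of 10 members (background 33.5%, 18.0% higher and 15.5% lower). Here PlaB treatment, listed for day 5 and not for control cells, also changes with the groups and cannot be told apart from them. Pmaip1 was lower on day 5, at 13.2 ± 3.43 CPM per kb (n = 3) against 47.4 ± 3.68 in control cells (n = 2), a change of -1.85 ± 0.23 (adjusted p = 8.96e-07). Xiap was lower (-0.88 ± 0.26, adjusted p = 0.00986; adjusted p = 0.0512 with GC offsets, 0.0571 without day 5 replicate 3 and 0.123 without control replicate 1), and Bcl2l1 was higher (1.54 ± 0.39, adjusted p = 0.00345; adjusted p = 0.0505 without control replicate 1). Mcl1 stood at 82.8 ± 7.71 CPM per kb on day 5 and 80.8 ± 9.15 in control cells, a difference of 0.03 ± 0.21 (adjusted p = 0.919). Summed feeder markers stood at 231 to 274 CPM on day 5 and 2551 to 2997 CPM in control cells. Fn1 alone averaged 206 CPM on day 5 and 747 CPM in control cells.

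Across all 19 libraries, which share the shifts in depth, base composition and feeder RNA described above, log2 levels of Xiap and Birc2 had a Pearson r of 0.80, Bax and Birc5 of 0.71, and Mcl1 and Bax of -0.78. Among 7318 genes of at least 10 CPM on average, those most like Mcl1 were Odr4 (r = 0.945), Golph3 (0.941) and Abi1 (0.940). Zranb2 (0.958), Atr (0.954) and Lrif1 (0.947) were most like Xiap, and Mllt10 (0.964), Slf1 (0.962) and Klf8 (0.959) most like Birc2. For Birc5 they were Uqcc3 (0.967), Mrpl27 (0.963) and Anapc16 (0.959). The scarce Bbc3 had no likeness above 0.751, shared by Fam83d and Alpl, before Oaz2 (0.736). These values describe likeness over libraries and carry no test.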

How the data were processed

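Raw counts per gene symbol were deposited by the authors in 2 tables, for 2D culture (4 libraries) and blastoids (15). The submitters' processing notes name STAR 2.7.10b, HTSeq 0.13.5 and the mm10 build. Annotation release and strand setting: not given in the sources used here. The labels' descriptions name the 2 tables crosswise, so columns were matched by title.

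Members and lists were chosen with earlier results of these data known. The text names the 10 members, up to 3 genes of each of 13 other lists by smallest adjusted p, and, for 5 members, the 3 genes most alike. A few further list genes, such as Bok, Hrk, Bik, Cdca8 and Trp53, were named after their values were seen. Genes were kept by filterByExpr (minimum count 10, minimum total 15) and tested with edgeR 4.0.16 (TMM, robust quasi-likelihood F-test, Benjamini-Hochberg over all genes, threshold 0.05) in R 4.3.3. The fits held 4, 15 or 19 libraries, with biological coefficients of variation of 0.127, 0.258 and 0.25. GC content and gene models came from GENCODE M21 (GRCm38), in which 53663 of 54352 symbols matched 1 gene. GC offsets were loess fits of log counts on transcript GC (span 0.5). Figures and tables used Python 3.11.15. The test was run on simulated counts with known changes.

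RLE scaling, total counts, no filter, DESeq2 1.42.0, only the groups compared, a replicate block and leaving out each library were alternatives. Where that left 1 library in a 2D group, it was assumed to vary like the others.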

Additional observations from a re-analysis of the deposited data

How the results depend on the processing

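Over the 10 genes and all comparisons, RLE size factors left every one of 89 results on its side of the threshold and DESeq2 88 of 89, with 1 gained. Total-count scaling kept 81 (6 gained, 2 lost), no filter 79 (2 gained, 8 lost), only the groups compared 54 of 59, and GC offsets 70, with 5 gained, 9 lost and 5 reversed. Of the fits leaving out 1 library, 506 kept the call, 72 lost it, 5 gained it and none reversed. GC offsets turned Bax to -0.21 for PlaB against control, 0.15 for day 2 against day 1, -0.26 for day 4 against day 3 and -0.031 for day 1 against PlaB, and Xiap to 0.0147 for day 4 against day 3. They left 0 members for day 2 against day 1, with 606 of all genes, and 1 for day 4 against day 3. Fitting only the groups compared gave 3 of 8 members tested for day 5 against day 1 (7107 of 12752 genes) and 1 of 8 for day 4 against day 3, and over all genes 2036, 2479 and 2697 for the steps to days 2, 3 and 4. Total-count scaling gave 7 members for day 1 against PlaB, with 6764 of all genes. The cause of these changes was not tested. The lists under GC offsets were added after seeing the data.

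Replicate numbers did not pair the samples. The correlation of same-numbered deviations was -0.0179 in 2D and -0.262 to 0.179 over 30 pairs in blastoids, 4 of them above 0.1, and 2 of 15 blastoid libraries correlated best with their own number. With the replicate block, 5 members passed for PlaB against control (5654 of 11183 genes), 5 for day 5 against day 1 (7321 genes), 2 for day 2 against day 1 (767 genes) and 7 for any change over days (9644 of 15121 genes), and 85 of 89 results kept their side. With the block and GC offsets together, 3 members passed for PlaB against control, 0 for day 2 against day 1 (422 genes) and 1 for day 4 against day 3 (2391 genes). In that fit Bax stood at -0.20, 0.15 and -0.23 for PlaB against control and for the steps to days 2 and 4, Bcl2l1 at 0.72 for day 5 against day 1, and Xiap at 0.0080 for the step to day 4.

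Leaving out 1 library in turn gave 4 to 6 members for PlaB against control (4177 to 5218 genes), 2 to 6 for day 5 against day 1 (6525 to 7632 genes), 0 to 3 for the step to day 2 (426 to 1490 genes), 1 to 4 for that to day 3 (1883 to 4669 genes), 1 to 4 for that to day 4 (2549 to 4591 genes), 1 to 2 for that to day 5 (2876 to 4367 genes), 2 to 4 for day 1 against PlaB (3811 to 5966 genes) and 1 to 3 for day 5 against control (3154 to 4903 genes). Depth limits Bcl2 and Bbc3, at 21 counts or fewer in every library.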
